A study of Mus musculus with 6 samples.

Results

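The 10 transcription factors described here, Shox2, Irx3, Irx5, Meis1, Meis2, Pitx1, Tbx3, Tbx4, Tbx15 and Tbx18, place or shape parts of the limb and lie outside the HOX clusters. They were chosen by gene symbol with the difference between genotypes already known, and all 10 were found among the 22984 genes of the deposited table. The series holds 3 RNA-seq libraries of Grx2-/- (knockout) and 3 of Grx2+/+ (wild type) mouse bone marrow mesenchymal stem cells, the adherent stromal cells of marrow that give rise to bone, cartilage and fat. The labels give no strain, sex, age, skeletal site or passage, and do not say how the allele was made or whether replicates came from separate animals. Values are FPKM, read counts scaled for gene length and library depth, so levels can be compared between genes. The depth implied by these values was 41011482 to 41794919 reads per knockout library and 40797879 to 41435761 per wild type library. Glrx2, the gene that encodes Grx2, was at 0.0046, 0 and 0 FPKM in knockout replicates 1 to 3, against 3.57, 3.74 and 3.54 FPKM in wild type replicates 1 to 3.

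These proteins act in the embryo to tell limb cells where they are. Pitx1 and its target Tbx4 mark the hindlimb, while Tbx5 marks the forelimb. Meis1 and Meis2 mark the proximal segment next to the trunk and are induced by retinoic acid. They belong, with the Irx factors, to the TALE class of homeodomain proteins, and MEIS proteins bind DNA together with PBX and HOX partners. Shox2 is needed for the humerus and femur, Irx3 and Irx5 for proximal and anterior parts of the hindlimb, and Tbx3 for the posterior forelimb. Tbx15 and Tbx18 are sister genes, with Tbx15 shaping the shoulder blade and other limb bones and Tbx18 the vertebral column and the mural cells of vessels. Stromal cells of adult bone are known to keep part of this positional expression from the site they come from.

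A RefSeq promoter window, 250 bases before to 50 after a start (build GRCm38.p6, another build than the GRCm39 of the submitters' processing notes), was at hand for 6 of the 10 genes: Irx3, Shox2, Meis1, Meis2, Tbx4 and Tbx18. Of these, the 4 with the widest differences between genotypes are shown, Tbx4 and Meis2 from the higher side and Irx3 and Shox2 from the lower side. They lie at chr11:85896515-85896814 (plus strand) for Tbx4, chr2:116064570-116064869 (minus strand) for Meis2, chr8:91801605-91801904 (minus strand) for Irx3 and chr3:66981722-66982021 (minus strand) for Shox2. Capitals mark the TATAAA box, on either strand.
Tbx4: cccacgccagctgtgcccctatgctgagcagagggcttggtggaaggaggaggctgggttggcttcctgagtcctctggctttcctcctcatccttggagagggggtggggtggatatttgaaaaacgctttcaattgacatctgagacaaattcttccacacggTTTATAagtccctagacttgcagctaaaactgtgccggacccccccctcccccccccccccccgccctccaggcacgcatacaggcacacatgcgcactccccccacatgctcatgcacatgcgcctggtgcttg
Meis2: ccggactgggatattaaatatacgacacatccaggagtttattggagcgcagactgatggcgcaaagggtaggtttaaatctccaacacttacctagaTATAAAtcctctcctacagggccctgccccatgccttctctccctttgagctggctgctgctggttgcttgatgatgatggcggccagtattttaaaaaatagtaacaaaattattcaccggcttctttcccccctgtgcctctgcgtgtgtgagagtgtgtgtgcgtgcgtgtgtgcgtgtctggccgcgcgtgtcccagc
Irx3: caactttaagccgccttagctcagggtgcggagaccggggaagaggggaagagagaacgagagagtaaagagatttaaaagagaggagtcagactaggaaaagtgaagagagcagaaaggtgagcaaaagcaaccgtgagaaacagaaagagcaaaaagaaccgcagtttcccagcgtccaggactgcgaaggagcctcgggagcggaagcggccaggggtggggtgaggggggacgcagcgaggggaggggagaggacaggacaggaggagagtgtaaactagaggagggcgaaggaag
Shox2: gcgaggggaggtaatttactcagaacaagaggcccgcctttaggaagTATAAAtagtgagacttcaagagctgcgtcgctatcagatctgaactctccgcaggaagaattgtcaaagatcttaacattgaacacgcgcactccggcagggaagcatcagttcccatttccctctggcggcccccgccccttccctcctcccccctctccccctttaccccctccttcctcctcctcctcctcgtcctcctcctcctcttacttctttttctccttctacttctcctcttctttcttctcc
The TATAAA letters lay from 85 bases before the start in Tbx4, on the opposite strand, from 152 in Meis2 and from 203 in Shox2, and were not in the Irx3 window; 13.6% of all 32851 windows hold them. The MEIS core TGACAG (19.2% of windows), the T-box core AGGTGT (13.7%) and the antioxidant response element TGACNNNGC (12.4%), each searched on both strands, were in none of the 4 windows shown. Of the other 2 windows, that of Tbx18 held TGACAG once. These letters do not overlap each other in the windows and are a description of sequence, not binding sites.

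Irx3, Irx5, Shox2, Tbx15 and Meis1 were lower in knockout libraries, and Tbx4, Meis2 and Pitx1 were higher. Tbx3 and Tbx18 overlapped between the groups. The groups did not overlap for 8 of the 10: 3 lay above and 5 below every wild type library, beside 45.7% above, 27.4% below and 73.1% in all of tested genes. All 10 were among the 11083 genes that averaged 1 FPKM or more and entered a limma fit. With a Benjamini-Hochberg adjusted p under 0.05 as the call, 3 members were higher in knockout libraries, where 42.7% of tested genes were, and 5 were lower, where 24.6% of tested genes were (8 either way, beside 67.4%). With median-of-ratios scaling 3699 tested genes were higher and 3670 lower, and with quantile normalization 3413 and 3945, in place of 4737 and 2728; the member counts stayed at 3 and 5 under both. At a minimum of 2-fold on the fitted scale 1 member was higher, Tbx4, and 3 were lower, Irx3, Irx5 and Shox2, beside 6.49% and 3.54% of tested genes. Because the members were picked on this contrast, the counts describe them and carry no test. The median absolute log2 fold change was 0.63 over the members and 0.24 over all tested genes. Fold changes below are knockout over wild type ± SE after taking log2(FPKM + 1), a scale that shrinks the differences of weakly expressed genes, and means are ± SD with n = 3 libraries per group. In RNA from a whole culture, fewer cells that express a gene and less RNA per cell cannot be told apart.

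**Figure D1:**
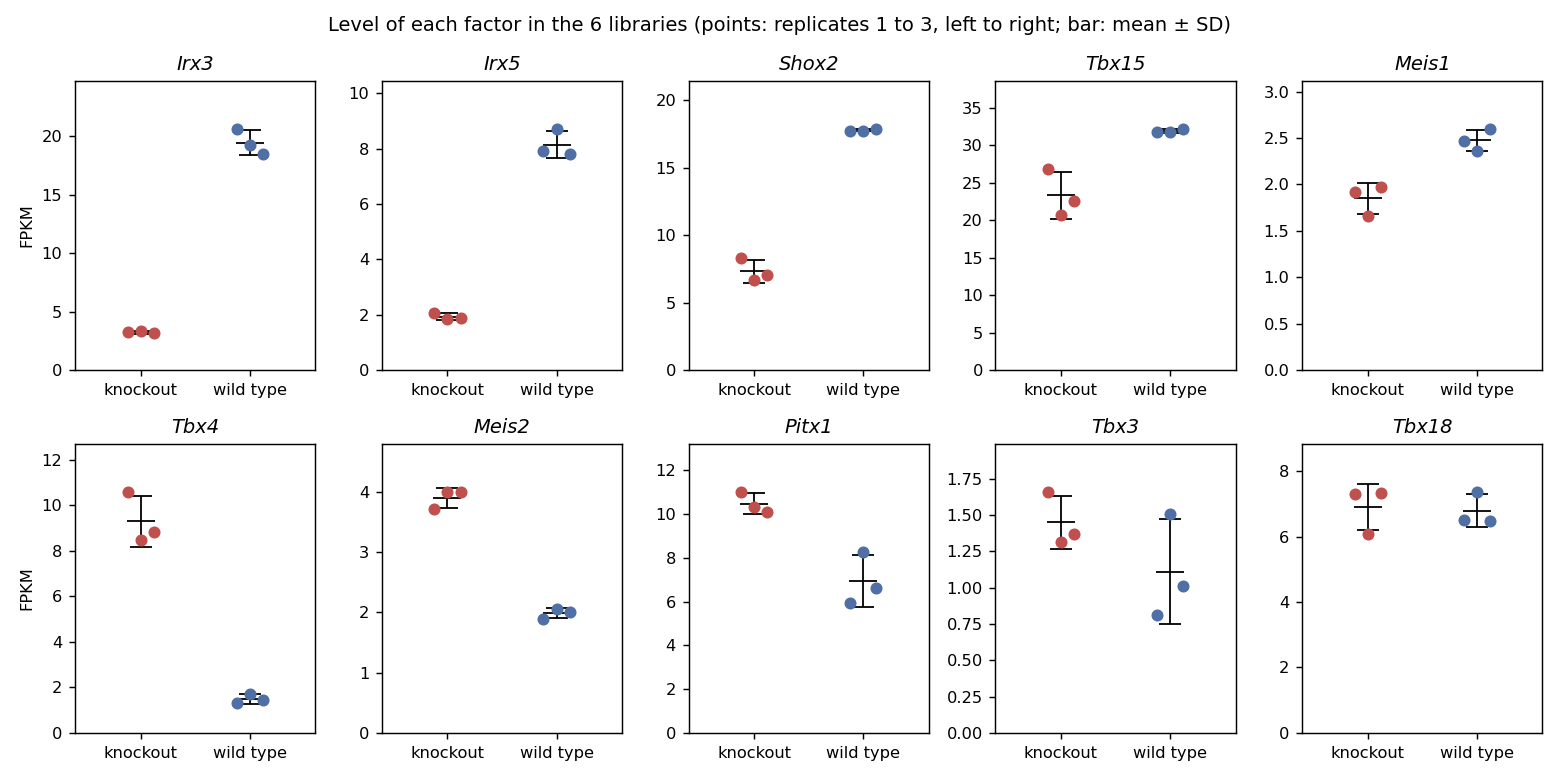
FPKM of each of the 10 factors (vertical axes, each from 0) in knockout (red) and wild type (blue) libraries; points are replicates 1 to 3 from left to right, and bars give the mean ± SD of 3. The knockout points lie below all wild type points for Irx3, Irx5, Shox2, Tbx15 and Meis1, above them for Tbx4, Meis2 and Pitx1, and among them for Tbx3 and Tbx18.

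The Irx pair had the deepest reductions. Irx3 was at 3.23, 3.36 and 3.14 FPKM in knockout replicates 1 to 3, against 20.6, 19.3 and 18.5 FPKM in wild type replicates 1 to 3. The 3 knockout libraries lie close together and far below every wild type library, with a knockout mean 0.167 times the wild type mean and a log2 fold change of -2.27 ± 0.052. Behind these values stood 304 to 327 reads per knockout library and 1808 to 1984 per wild type library. Irx5, the neighbour of Irx3 in the same cluster, was at 2.07, 1.84 and 1.90 FPKM in knockout libraries, against 7.92, 8.70 and 7.79 FPKM in wild type libraries. Its groups were also well apart, with a ratio of means of 0.238 and a log2 fold change of -1.64 ± 0.060. Irx3 was 1.56 to 1.83 times as high as Irx5 in knockout libraries and 2.22 to 2.60 times above it in wild type libraries, so the gap between the pair was narrower in every knockout library.

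Shox2, a homeodomain factor of the proximal limb skeleton, was at 8.29, 6.69 and 7.02 FPKM in knockout libraries, against 17.7, 17.7 and 17.9 FPKM in wild type libraries. The wild type libraries had a coefficient of variation (CV) of 0.431%, below the 1.56% of read counting alone, while the knockout CV was 11.5% with replicate 1 highest. The log2 fold change was -1.18 ± 0.069. Shox2 overlaps Rsrc1, a splicing factor gene, in the RefSeq table; without a stated strand setting, reads in the overlap cannot be assigned, and Rsrc1 itself was at 5.30 ± 0.113 FPKM in knockout and 5.98 ± 0.162 FPKM in wild type libraries.

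Tbx15, the most abundant of the 10 factors in both genotypes, was at 26.8, 20.7 and 22.5 FPKM in knockout libraries, against 31.8, 31.7 and 32.1 FPKM in wild type libraries. As with Shox2, the wild type libraries were nearly identical (CV 0.673%) and the knockout libraries spread more widely (CV 13.6%, replicate 1 highest), with no overlap. The log2 fold change was -0.44 ± 0.082. Meis1 was at 1.92, 1.66 and 1.98 FPKM in knockout libraries, against 2.47, 2.36 and 2.59 FPKM in wild type libraries. This was the smallest of the 5 reductions, -0.29 ± 0.065 on the log2 scale, and rested on 250 to 297 reads per knockout library and 357 to 394 per wild type library.

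Tbx4, the T-box factor of hindlimb outgrowth, had the largest difference upward among the 10. It was at 10.6, 8.49 and 8.83 FPKM in knockout libraries, against 1.32, 1.71 and 1.44 FPKM in wild type libraries. The lowest knockout library was well above the highest wild type library, with a ratio of means of 6.24, a log2 fold change of 2.05 ± 0.092, and 1207 to 1530 reads per knockout library against 186 to 244 per wild type library. Pitx1, the hindlimb factor upstream of Tbx4, was at 11.0, 10.3 and 10.1 FPKM in knockout libraries, against 5.96, 8.27 and 6.62 FPKM in wild type libraries. Wild type replicate 2 was the highest of its group and closest to the knockout range, and the log2 fold change was 0.54 ± 0.098. Tbx4 stood at 0.823 to 0.961 of the level of Pitx1 in knockout libraries and at 0.207 to 0.221 of it in wild type libraries.

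Meis2 was at 3.71, 4.00 and 4.00 FPKM in knockout libraries, against 1.89, 2.06 and 2.01 FPKM in wild type libraries. Both groups were tight, the ratio of means was 1.96 and the log2 fold change was 0.71 ± 0.055. Its difference thus ran opposite to that of its paralog Meis1. Meis2 was 1.93, 2.41 and 2.02 times as high as Meis1 in knockout replicates 1 to 3, and 0.766, 0.871 and 0.775 times as high in wild type replicates 1 to 3, so the order of the 2 genes differed between the genotypes in every library.

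Tbx3, a transcriptional repressor needed for the posterior forelimb, was the lowest of the 10 in both groups. It was at 1.66, 1.32 and 1.37 FPKM in knockout libraries and 0.812, 1.51 and 1.01 FPKM in wild type libraries. Wild type replicate 2 fell inside the knockout range, and the wild type CV of 32.4% was the largest of any member in either group, against 6.51% for counting alone. The log2 fold change was 0.23 ± 0.12, and without wild type replicate 2 it was 0.36 and passed the call. Tbx18 was at 7.30, 6.09 and 7.33 FPKM in knockout libraries and 6.51, 7.37 and 6.48 FPKM in wild type libraries. Its ranges overlapped almost fully, with a log2 fold change of 0.02 ± 0.078, and its value ran from -0.09 to 0.10 over the alternatives on that scale.

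The order of the 10 levels differed between the groups below the top. In knockout libraries it ran Tbx15, Pitx1, Tbx4, Shox2, Tbx18, Meis2, Irx3, Irx5, Meis1 and Tbx3; neighbours whose ranges overlapped were Pitx1 with Tbx4, Shox2 with Tbx18, Irx5 with Meis1 and Meis1 with Tbx3. In wild type libraries it ran Tbx15, Irx3, Shox2, Irx5, Pitx1, Tbx18, Meis1, Meis2, Tbx4 and Tbx3, with overlap of Irx5 with Pitx1, Pitx1 with Tbx18 and Tbx4 with Tbx3. Irx3 was 7th of 10 in knockout and 2nd in wild type libraries, while Tbx4 was 3rd in knockout and 9th in wild type libraries.

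Relatives of the members in the same or a sister cluster did not all follow them. Irx3os, in the cluster of Irx3 and Irx5, was lower in knockout libraries as they were. It was under the filter, at 0.0534 ± 0.0157 FPKM in knockout and 0.301 ± 0.0331 FPKM in wild type libraries. Irx1 lies in the other Irx cluster and was at 3.17, 3.75 and 3.61 FPKM in knockout libraries, against 0.104, 0.110 and 0.125 FPKM in wild type libraries (408 to 475 reads and 13 to 16 reads). It rose by 2.02 ± 0.067 on the log2 scale (limma adjusted p = 1.22e-07), opposite to Irx3 and Irx5. Irx3 was 0.868 to 1.02 times as high as Irx1 in knockout libraries and 147 to 199 times as high in wild type libraries. Irx2, next to Irx1 and named after its values were seen, was under the filter, at 0.233 to 0.250 FPKM in knockout libraries and 0.0191 to 0.0315 FPKM in wild type libraries. Tbx2, a repressor that neighbours Tbx4 and is the paralog of Tbx3, was at 0.463, 0.525 and 0.349 FPKM in knockout libraries, against 2.01, 2.23 and 1.91 FPKM in wild type libraries. It fell by 1.08 ± 0.073 on the log2 scale (limma adjusted p = 5.1e-06), while Tbx4 beside it was higher. The Tbx4 to Tbx2 ratio was 22.9, 16.2 and 25.3 in knockout libraries and 0.657, 0.769 and 0.753 in wild type libraries. Tbx5, the forelimb factor next to Tbx3 and also named after its values were seen, was close to the limit of detection, with 34, 16 and 32 reads in knockout libraries and 7, 1 and 1 in wild type libraries.

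**Figure D2:**
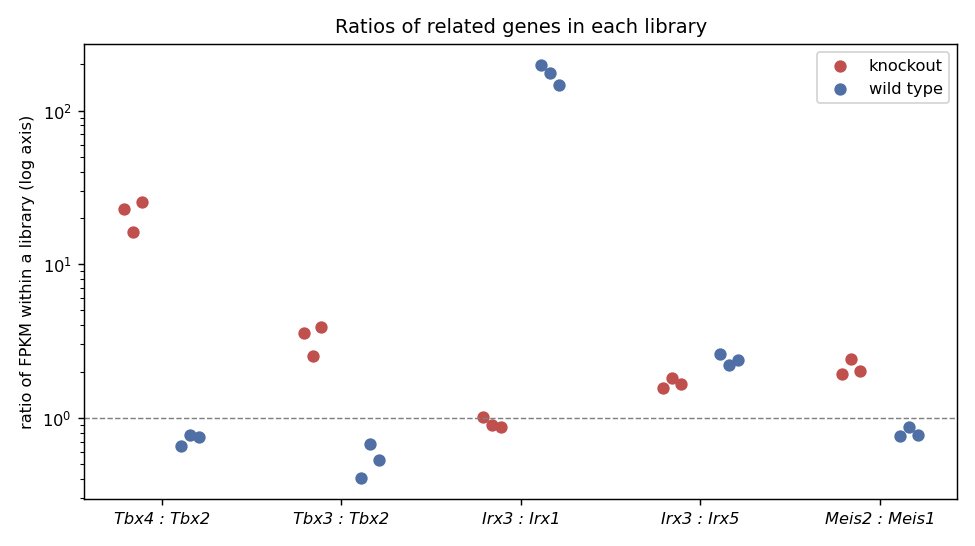
Ratio of FPKM between related genes within each library (log axis) for knockout (red, left) and wild type (blue, right), replicates 1 to 3 from left to right; the dashed line marks equal levels. Tbx4 to Tbx2, Tbx3 to Tbx2 and Meis2 to Meis1 lie above the line in knockout and below it in wild type libraries, and Irx3 to Irx1 is near it in knockout libraries and at least 147 in wild type libraries.

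The nearest tested gene on each side of a member, within 1 Mb in the RefSeq table, gave 17 genes that are not members. Of these, 6 rose, 6 fell and 5 did not pass the call, against 42.7% higher and 24.6% lower over all tested genes; 4 rose and 9 fell with median-of-ratios scaling, and 4 and 10 with quantile normalization. The 3 tested neighbours of Irx3 and Irx5 were all lower. Crnde, a long noncoding RNA between the pair, was at 0.845 ± 0.0566 FPKM in knockout and 2.20 ± 0.262 FPKM in wild type libraries (-0.79 ± 0.075, limma adjusted p = 3.55e-05). Mmp2, a gelatinase beyond Irx5, was at 124 ± 8.76 FPKM in knockout and 262 ± 9.32 FPKM in wild type libraries (-1.08 ± 0.054), and Fto, a demethylase gene beyond Irx3, fell by only 0.25 ± 0.035. Next to Shox2, Ptx3, a secreted pentraxin, rose by 1.92 ± 0.10 and Rsrc1 fell by 0.15 ± 0.046, a call that was lost without wild type replicate 1 or 2. On the far side of Tbx4, Brip1, a DNA repair helicase, rose by 0.67 ± 0.10. Nt5e, the surface enzyme CD73 beside Tbx18, was at 2.10 ± 0.253 FPKM in knockout and 10.8 ± 0.472 FPKM in wild type libraries (-1.94 ± 0.069), although Tbx18 itself overlapped. The neighbours of Tbx15, Wars2 and Wdr3, did not pass, nor did Macroh2a1 beside Pitx1, although these 3 passed as lower with median-of-ratios scaling and quantile normalization. Also short of the call were Etaa1 beside Meis1 and Cep162 beside Tbx18, of which Cep162 passed as lower with quantile normalization (-0.22). Pcbd2 beside Pitx1 (0.39), Med13l (0.39) and Rbm19 (0.18) beside Tbx3 and Spred2 beside Meis1 (0.19) rose; the calls of Rbm19 and Spred2 were lost with median-of-ratios scaling and quantile normalization, and that of Spred2 also without knockout replicate 3 or wild type replicate 1. Meis2 had no tested neighbour in that window.

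The partners of MEIS proteins and other TALE genes moved in both directions. Of 10 tested TALE genes outside the 10 members, 6 rose, 2 fell and 2 did not pass, beside 42.7% higher and 24.6% lower of all tested genes. Their median log2 fold change was 0.24, beside 0.09 over all tested genes. Quantile normalization or median-of-ratios scaling gave 5 that rose and 3 that fell. Pbx3, a DNA-binding partner of MEIS proteins, was at 6.18 ± 0.452 FPKM in knockout and 3.66 ± 0.126 FPKM in wild type libraries (0.62 ± 0.060, limma adjusted p = 4.09e-05). Mkx, a tendon regulator, rose by 1.19 ± 0.086, while Tgif2, a repressor of TGF-beta responses, fell by 0.97 ± 0.064. Of the T-box genes outside the members, 2 of 11 passed the filter and both fell, Tbx2 and Mga, a partner of MAX (-0.24 ± 0.067), beside 24.6% lower of all tested genes. Tbx2 averaged 0.446 FPKM in knockout libraries and passed the filter only through wild type libraries. A lower call was thus the only direction open to Tbx2. With no filter 1 of 11 was higher, Tbx5, 2 were lower and 8 were not called.

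Of 12 tested limb transcription factors of other families, all passed by limma, 8 upward and 4 downward, beside 42.7% and 24.6% of all tested genes. The median log2 fold change was 0.43, beside 0.09 over all tested genes. With quantile normalization 7 rose and 4 fell. Dlx5 and Dlx6, a linked pair that acts in the limb tip and in bone formation, both fell. Dlx5 was at 1.06, 0.675 and 0.663 FPKM in knockout libraries, against 14.9, 14.5 and 15.4 FPKM in wild type libraries (-3.15 ± 0.087 on the log2(FPKM + 1) scale, -4.24 with voom on whole reads). Dlx6 was at 0.112, 0.0454 and 0.0455 FPKM in knockout libraries, from 5, 2 and 2 reads, against 5.42 to 7.68 FPKM in wild type libraries, from 237 to 341 reads. Its log2 fold change was -2.87 ± 0.11 on the log2(FPKM + 1) scale, which understates changes of low genes, and -6.53 with voom, so the order of Dlx5 and Dlx6 turns with the scale. Prrx2, a marker of limb mesenchyme, was at 79.7 ± 2.07 FPKM in knockout and 27.7 ± 2.15 FPKM in wild type libraries, and Osr1, a factor of irregular connective tissue, was at 16.6 ± 0.700 FPKM in knockout and 3.95 ± 0.353 FPKM in wild type libraries. Of 31 listed genes in this group 19 were under the filter. With no filter 18 of 31 were higher and 6 lower, beside 5499 higher and 3614 lower of all 22984 genes.

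Of 11 tested limb signals, 5 rose, 5 fell and 1 did not pass, beside 42.7% higher and 24.6% lower of all tested genes. The median log2 fold change was -0.13, beside 0.09 over all tested genes. Median-of-ratios scaling gave 4 that rose and 5 that fell, and quantile normalization 4 and 6. With no filter 4 of 16 were higher and 7 lower, beside 5499 higher and 3614 lower of all 22984 genes. Fgf10, the outgrowth signal that Tbx4 and Tbx5 activate in the limb bud, was at 3.36, 3.07 and 3.48 FPKM in knockout libraries, against 0.0268, 0.101 and 0.0792 FPKM in wild type libraries (2.01 ± 0.065, limma adjusted p = 1.08e-07). Bmp4, a bone morphogenetic protein, rose by 1.87 ± 0.075. Aldh1a2, which makes the retinoic acid that induces Meis genes, was at 1.24, 0.569 and 0.819 FPKM in knockout libraries, against 12.4, 9.71 and 10.4 FPKM in wild type libraries (-2.67 ± 0.13). Ptch1, the receptor and target of hedgehog signalling, fell by 2.01 ± 0.075. Fgf10 passed the filter only through knockout libraries, and Aldh1a2 only through wild type libraries.

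**Figure D3:**
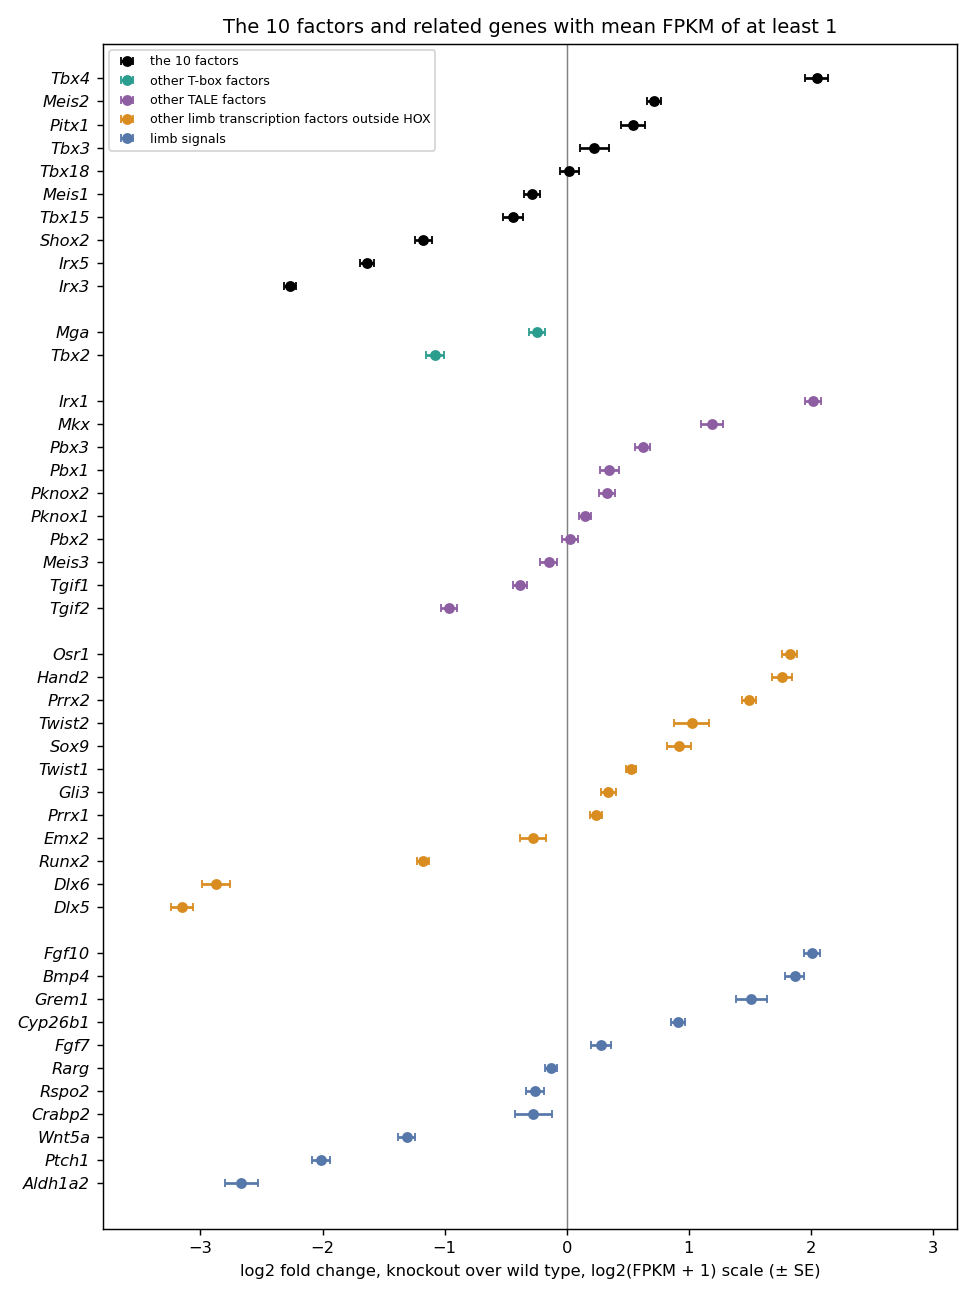
Log2 fold change of knockout over wild type (horizontal axis, log2(FPKM + 1) scale, ± SE) for the 10 factors in black and for the tested related genes, coloured by list. The 10 factors run from -2.27 (Irx3) to 2.05 (Tbx4), and each related list with more than 2 tested genes has genes on both sides of 0.

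Genes with the closest profile were found by the Euclidean distance between mean-centred log2(FPKM + 1) values over the 6 libraries, a likeness set mostly by the difference between genotypes. Fam43a (distance 0.0667) and Adh1 (0.0938) lay nearest to Tbx4, Ncam1 (0.143) and Sema4f (0.147) to Irx3, and Irs1 (0.0857) and Antxr1 (0.0950) to Shox2. Ankrd13d (0.0270) and Prim2 (0.0275) were nearest to Meis2, and Inka2 (0.0936) and Tead4 (0.0945) to Pitx1. Mdm2 (0.126) and Foxf2 (0.135) were nearest to Tbx3. Dusp27 and Lamb3 were nearest to Irx5, Apbb2 and Rnf2 to Meis1, Ogt and Irgq to Tbx15, and Zdhhc17 and Ddx55 to Tbx18. On this scale a near gene that is low in 1 group can have a larger ratio of means. Adh1 averaged 3.31 FPKM in knockout and 0.0866 FPKM in wild type libraries, against 9.30 and 1.49 FPKM for Tbx4. The same held for Sema4f beside Irx3 and for Dusp27 and Lamb3 beside Irx5, while Fam43a averaged 14.0 and 2.64 FPKM.

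Within each group 7 of the 10 factors had a CV above the median of all tested genes. Their median CV was 9.71% in knockout and 5.76% in wild type libraries, beside 5.29% and 4.52% over all tested genes. Knockout replicate 1 was the highest of its group for 6 members, Shox2, Irx5, Pitx1, Tbx3, Tbx4 and Tbx15, where it was highest for 41.8% of tested genes, and knockout replicate 2 was the lowest for 7, where it was lowest for 37.4%. Wild type replicate 2 was the highest of its group for 6, Irx5, Meis2, Pitx1, Tbx3, Tbx4 and Tbx18, where it was highest for 50.8% of tested genes. It was 18.9% above the group mean for Pitx1, 35.9% for Tbx3 and 15.0% for Tbx4.

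**Figure D4:**
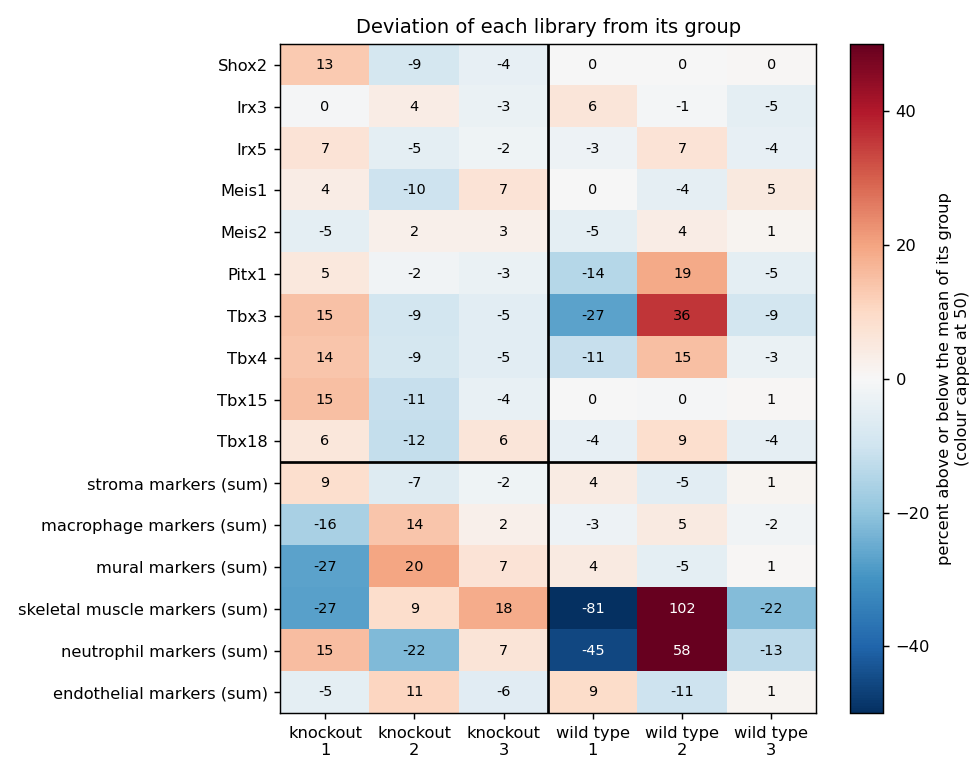
Percent by which each library lies above (red) or below (blue) the mean of its own group for the 10 factors and for the summed FPKM of marker lists; the vertical line separates knockout from wild type libraries. Tbx3, Tbx4 and Pitx1 are highest in wild type replicate 2, where the skeletal muscle and neutrophil sums are also highest, and Tbx15 and Shox2 stay within 1% of the mean in wild type libraries but not in knockout libraries. The stroma, macrophage and mural sums are led by a few abundant genes.

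Markers of other cells differed between the same libraries. Over all tested genes 42.7% were higher and 24.6% lower in knockout libraries. Of 15 stromal markers, all tested, 6 were higher and 8 lower, with a summed level of 6394 to 7428 FPKM in knockout and 9202 to 10118 FPKM in wild type libraries. The 6 higher were Pdgfra, Col3a1, Thy1, Cd44, Ly6a and Vcam1. Thy1 averaged 167 FPKM in knockout and 11.9 FPKM in wild type libraries. Among the 8 lower, Lepr, the leptin receptor of marrow stroma, was under 0.05 FPKM in every knockout library. Of 11 macrophage markers 10 were higher, with sums of 2490 to 3384 FPKM in knockout and 1526 to 1642 FPKM in wild type libraries. All 9 tested neutrophil markers were lower, as were all 5 tested endothelial markers. S100a9, Ngp, Ltf, Camp, Mpo, Elane, Prtn3, Cdh5, Pecam1, Emcn and Kdr averaged under 1 FPKM in knockout libraries. They passed the filter only through wild type libraries, so a lower call was the only direction open to them. Summed over the whole list, neutrophil genes were at 4.71 to 6.94 FPKM in knockout and 923 to 2678 FPKM in wild type libraries. Endothelial genes summed to 4.19 to 4.92 FPKM in knockout and 23.7 to 29.0 FPKM in wild type libraries. Ltf, Mpo, Elane, Prtn3, Retnlg, Emcn, Tie1 and Cldn5 were under 0.05 FPKM in every knockout library. Of these, Retnlg, Tie1 and Cldn5 were under the filter and not tested. Of the 5 endothelial markers under the filter, Tek was at 0.555, 0.647 and 0.625 FPKM in knockout libraries, against 0.284, 0.252 and 0.260 FPKM in wild type libraries, and Erg overlapped between the groups. With no filter Tek was called higher, and Tie1, Flt1 and Cldn5 were called lower. Of 4 tested mural markers 3 were lower, and Cspg4 overlapped between the groups. The whole list summed to 502 to 818 FPKM in knockout and 1552 to 1706 FPKM in wild type libraries. Acta2 alone averaged 630 of 684 FPKM in knockout and 1558 of 1634 FPKM in wild type libraries. Col1a1 and Col1a2 in the stromal sum and Lyz2 in the macrophage sum weighed in the same way. Such sums follow their most abundant genes. Of 4 tested skeletal muscle markers 3 were lower. These were Myog, Myh3 and Tnnt3, which also passed the filter only through wild type libraries. The whole list summed to 2.57 to 4.19 FPKM in knockout and 3.87 to 40.6 FPKM in wild type libraries, with wild type replicate 2 highest. Myod1, Myog, Pax7, Myh3 and Actn2 were under 0.05 FPKM in every knockout library, as was Pax7 in every wild type library. Of these, Myod1, Pax7 and Actn2 were under the filter and not tested. Of 9 blood progenitor and erythroid genes the 3 tested, Cd34, Gata2 and Mecom, were higher. Gata2 and Mecom averaged 0.539 and 0.264 FPKM in wild type libraries. They passed the filter only through knockout libraries, so a higher call was the only direction open to them. With no filter Kit, Gata1 and Hbb-bs were called lower. The whole list, mostly Cd34, summed to 31.1 to 32.1 FPKM in knockout and 7.95 to 8.73 FPKM in wild type libraries. Kit, Gata1, Klf1, Hbb-bs and Hba-a1 were under 0.05 FPKM in every knockout library. In wild type libraries Kit was at 0.628 to 0.913 FPKM. Gata1, Klf1, Hbb-bs and Hba-a1 were low there too, at 0.263 FPKM or less, and Klf1 and Hba-a1 overlapped between the groups. The part of these differences in the levels of the 10 factors was not tested. Without wild type replicate 2 and knockout replicate 1 the calls were 4 higher and 5 lower, with Tbx3 added. The anatomical site and the culture of each genotype are not in the labels, and so cannot be told apart from the genotype.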

How the data were processed

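The authors deposited 1 table of FPKM for 3 knockout and 3 wild type libraries; HISAT2, HTSeq and R 3.2.0 with build GRCm39 are named in the submitters' processing notes, and neither those notes nor the labels give the aligner's version, the annotation or the strandedness used for counting. Groups came from the genotype in the labels. FPKM was used as deposited. Library depths were inferred from recurring ratios and gaps among the FPKM values. With these depths, whole reads were worked back for the 22984 genes as the smallest whole numbers that fit the values of all 6 libraries within 0.001 reads. A few genes with few reads may share a factor. At the lowest values this tolerance also accepted 0 reads for FPKM above 0, as for Shh in knockout replicate 2 (0.00848 FPKM). The counts of such genes were therefore not recovered.

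The 11083 genes with mean FPKM of at least 1 were fitted as log2(FPKM + 1) with limma 3.58.1 in R 4.3.3 (trend, two-sided, Benjamini-Hochberg over all tested genes, adjusted p under 0.05). Genes averaging under 1 FPKM in 1 group passed this filter only through the other, which fixed the direction of a call. Among named related genes and neighbours, Irx1, Fgf10 and Spred2 passed only through knockout libraries. Tbx2, Tgif2, Dlx5, Dlx6, Aldh1a2 and Crnde passed only through wild type libraries. Nothing says that replicates were separate cultures, so the p-values reflect spread among libraries that may be technical. The fit was also run on simulated reads in which few genes changed, unlike in these data, so that run does not vouch for the calls here. The members, lists and tests were chosen with earlier results of these data known. Named are the members, Glrx2, up to 4 genes of smallest p per list, the nearest tested neighbours and the 2 nearest profiles. Irx2, Irx3os, Tbx5 and markers of other cells were named after their values were seen. RefSeq symbols (GRCm38.p6) matched 11066 tested genes; its gene coordinates were used only to find neighbours and overlaps, and promoter windows are printed with that build. One marker gene is not reported here and was left out of its list. Alternatives changed the pseudocount, filter, scaling, variance prior, replicate block, libraries or used voom on whole reads. Tables were made with pandas 2.3.3 and figures with matplotlib 3.10.9.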

Additional observations from a re-analysis of the deposited data

How the results depend on the processing

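Of 167 values of the 10 factors under the alternatives, 165 kept their direction or side of the threshold, 0 reversed a call, and 2 passed that had not. Both were Tbx3, without wild type replicate 2 (0.36) and without wild type replicate 2 and knockout replicate 1 together (0.30). With a mean FPKM of at least 5, Meis1, Meis2 and Tbx3 were not tested. The other named genes had 496 values, of which 474 were the same, 10 lost and 12 gained the call. A minimum of 2-fold left 719 genes higher and 392 lower. Related genes called, 19 higher and 13 lower, became 11 and 8 with a mean FPKM of at least 5 and, for those higher, 31 with no filter, since the filter sets how many are tested. Leaving out 1 library gave 4186 to 4742 genes higher and 2377 to 2822 lower, 18 to 19 related genes higher and 10 to 14 lower, and 3 to 4 members higher with 5 lower. Same-numbered libraries deviated together with correlations of 0.107, 0.124 and 0.0199, and differently numbered libraries with -0.129 to 0.0598. The labels name no shared animal or day, so the numbers were not taken as pairs. With the replicate block 4771 genes were higher and 2791 lower, with 3 and 5 members. Quantile normalization moved the median log2 fold change of all tested genes by -0.11. With voom on whole reads, in place of log2(FPKM + 1), the values of low genes were over 1.5 times larger: Irx1 4.91, Fgf10 5.71, Tbx2 -2.21, Tgif2 -1.77, Mkx 1.81, Crnde -1.37, Brip1 1.01, Tbx3 0.42 and Spred2 0.36. Depth limits Tbx5, Irx2, the knockout levels of Irx3os and Dlx6 and the wild type levels of Irx1 and Fgf10, which rest on few reads.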
